A study of Papio anubis with 8 samples.

Results

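Forkhead transcription factors share a winged-helix DNA-binding domain, and were taken here as every row of the expression table whose symbol begins with FOX, a letter from A to S and a digit. The rule found 43 of the 37053 rows. Of these, 42 are described as forkhead box genes in the table, and the remaining row, FOXL2NB, is a neighbour of FOXL2 that is not annotated as a forkhead gene and had at most 6 counts in a library. Messenger RNA levels were measured by strand-specific RNA sequencing of hippocampus from olive baboon (Papio anubis) fetuses at 0.9 of gestation, in a study whose dams varied in fatness and in leptin. No label gives the maternal group of any of the 8 libraries, AMB3 to AMB10, so all of them are unassigned, no groups are compared, and values describe how the libraries differ. The libraries share tissue and stage, nothing states that their fetuses were distinct, and fetal sex is not labelled.

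Members of the family act at many points of brain development. The FOXP factors shape cortical and striatal neurons and their circuits. The factors FOXO1, FOXO3 and FOXO4 are held out of the nucleus when insulin or IGF signalling activates the kinase AKT. FOXJ1 drives the building of motile cilia, FOXM1 the genes of mitosis, and FOXC1, FOXF2, FOXQ1 and FOXS1 are genes of the meninges and of blood vessel walls.

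Total counts ran from 40404878 to 71648654 per library, and forkhead genes took between 0.0925% and 0.116% of them. The unit used for levels is CPM, counts per 1000000 after scaling of library sizes. CPM is not scaled to gene length, so that levels are compared between libraries within a gene and not between genes. The low-count filter, which asks for about 10 counts in every library, was passed by 16874 genes and by 25 of the 42 forkhead genes. The granule cell factor PROX1 (14.4 to 96.6 CPM) and the glutamate transporter SLC17A7 (805 to 1363 CPM) were found in every library. Neither is limited to hippocampus, so their presence cannot check the tissue label. In total tissue, fewer cells of a type and less RNA per cell cannot be told apart.

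Among the 25 genes that passed, the level varied between libraries by very different amounts. The log2 range, which is the difference in log2 CPM between the highest and the lowest library, had a median of 0.95 over these 25 genes and of 0.77 over all tested genes. It was at least 1 in 12 of the 25, against 36.1% of all tested genes, and at least 2 in 3 of the 25, against 9.0%. These 3 genes were FOXP2, FOXH1 and FOXO1. At the other end FOXK2, FOXJ3, FOXJ1 and FOXF2 had a range under 0.5, as did 25.0% of all tested genes. In 24 of the 25 genes the 95% Poisson intervals of the highest and the lowest library did not overlap, against 97.1% of all tested genes, and FOXL2 was the exception. These intervals cover counting error only.

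**Figure D1:**
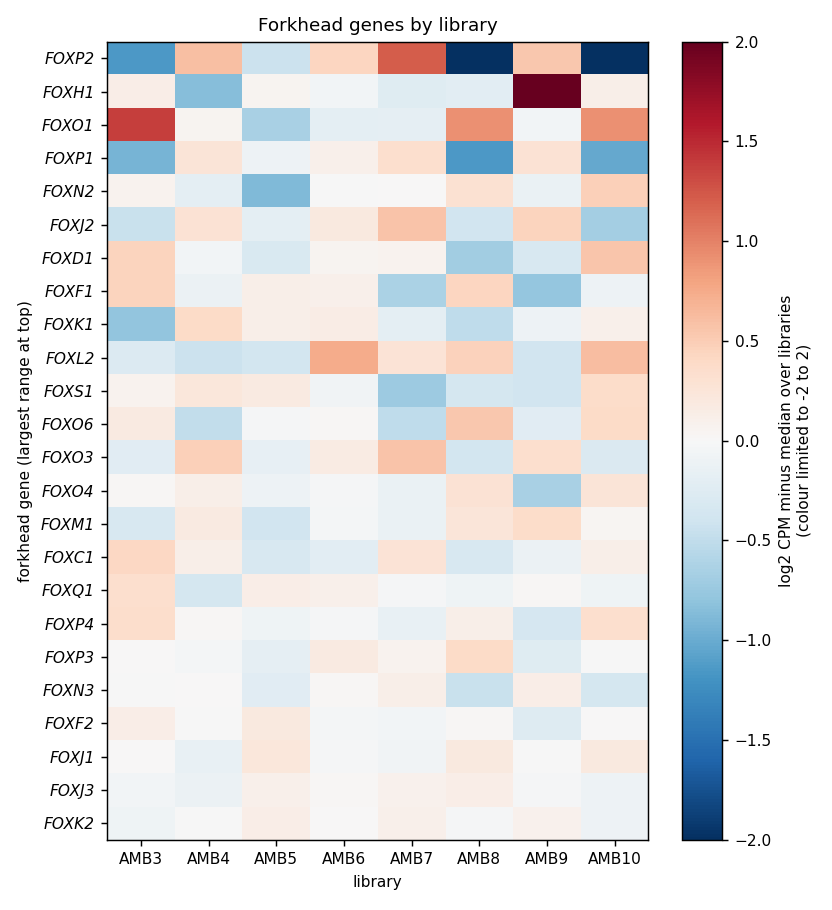
Log2 CPM of 24 of the 25 forkhead genes that passed the filter, minus the gene's median over the 8 libraries (columns), with genes in rows from the largest range (FOXP2) to the smallest (FOXK2). Colours are limited to -2 to 2; FOXP2 stands out as low in AMB8 and AMB10, FOXH1 as high in AMB9 and FOXO1 as high in AMB3, AMB8 and AMB10.

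The FOXP genes did not all vary alike. FOXP1 and FOXP2 ordered the libraries alike except for AMB4 and AMB9, with a wider range in FOXP2. FOXP2, in which mutations disturb speech and language in humans (gene ID 100137387, chromosome 4, 44154493 to 44751175 on the minus strand of Panubis1.0), had 1.58 CPM in its lowest library, a median of 30.3 CPM and 67.5 CPM in its highest. AMB8 was lowest with 106 counts (95% Poisson interval 1.30 to 1.91 CPM), followed by AMB10 with 274 counts (3.38 to 4.30 CPM) and AMB3 with 533 counts (12.03 to 14.3 CPM). AMB5 had 21.6 CPM, AMB6 38.9, AMB9 42.2, AMB4 43.9, and AMB7, the highest, 65.6 to 69.4 CPM by its interval. The log2 range of 5.38, or 42.6-fold, was reached by 0.166% of tested genes and was 4.13 without AMB8.

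FOXP1, a factor of cortical and striatal projection neurons (gene ID 101007497, chromosome 2, 68481765 to 69113002, plus strand), had 53.5 CPM in AMB8, a median of 118 CPM and 149 CPM in AMB7. The libraries fell on 2 sides of a gap, with AMB8, AMB10 (57.9 CPM) and AMB3 (61.9 CPM) below it and the others between 109.6 CPM in AMB5 and 149 CPM. FOXP4, the third FOXP gene of the developing brain, went the opposite way over a smaller range of 0.68, from 12.4 CPM in AMB9 over a median of 15.6 CPM to 19.9 CPM in AMB3. AMB3, AMB10 and AMB8 were its 3 highest libraries. The ratio of FOXP1 to FOXP4 counts, in which library size cancels, was between 2.96 and 3.15 in AMB10, AMB3 and AMB8 and between 7.51 and 11.7 in the other libraries. The ratio of FOXP2 to FOXP1 counts was 0.0296 in AMB8 and 0.0660 in AMB10, lower than in any other library (0.197 in AMB5 to 0.453 in AMB7), so that FOXP2 differed there by more than FOXP1 did. AMB3, at 0.212, did not share this.

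FOXP3, the factor of regulatory T cells, had 1.58 CPM in AMB9, a median of 1.88 CPM and 2.46 CPM in AMB8, from 63 to 165 counts. Its span overlaps by 89 bases that of CCDC22, a gene on the opposite strand at 17.2 to 22.0 CPM, and how the deposited counts treat strand is not given in the sources used here. Of 8 T cell markers, 3 passed the filter, CD3E (2.28 to 5.48 CPM), IL7R and CD4. The summed level of the 8 ranged from 4.37 CPM in AMB5 to 8.21 CPM in AMB10, and CD3D, CD3G, CD2, IL2RA and CTLA4 had no count in at least 1 library. The part of such cells in the FOXP3 level was not tested.

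**Figure D2:**
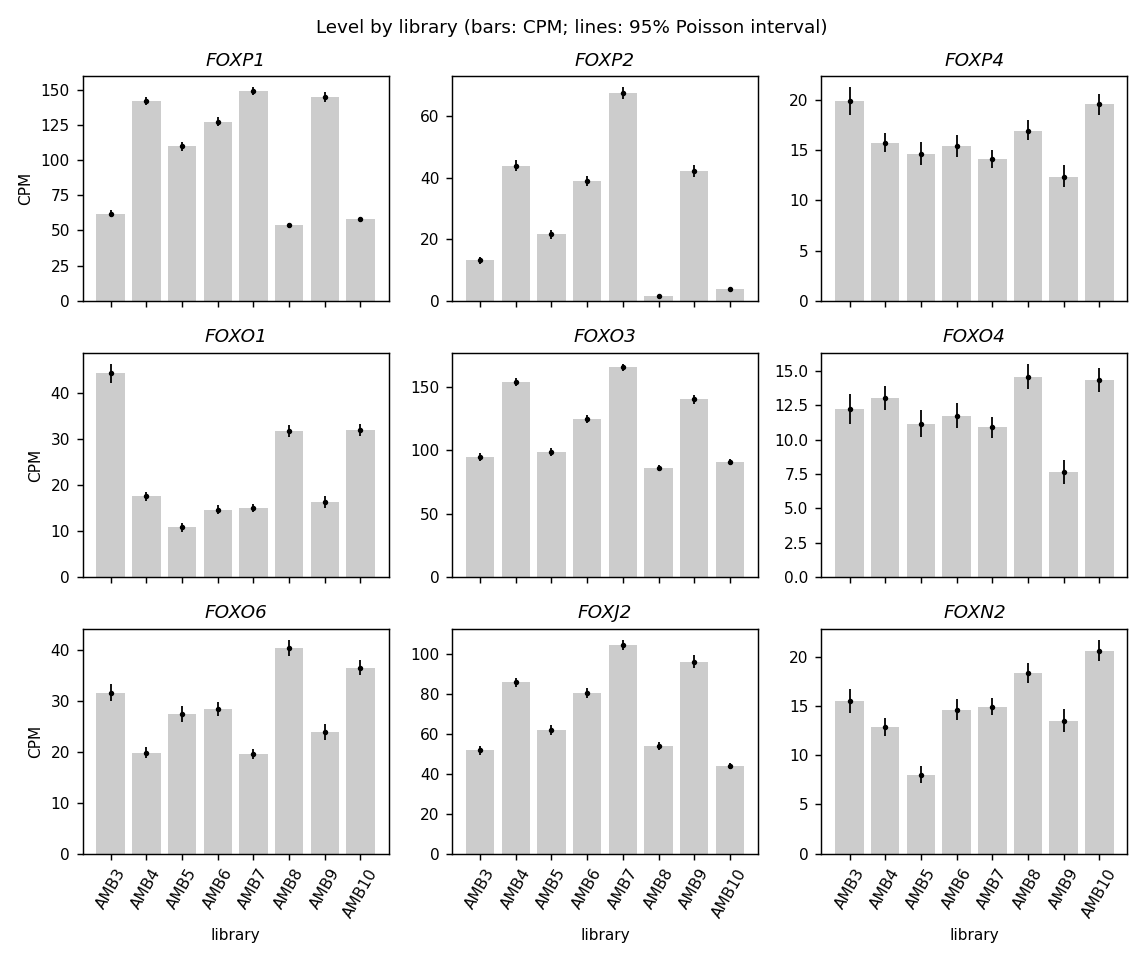
Level in CPM (vertical axes, each starting at 0) of 9 forkhead genes in each of the 8 libraries (horizontal axes); bars give the CPM and lines the 95% Poisson interval of the count. FOXP1 and FOXP2 are lowest, and FOXO1, FOXO6 and FOXN2 highest, in AMB3, AMB8 and AMB10, whereas FOXO4 is set apart by its low value of 7.65 CPM in AMB9.

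Transcripts of proteins that bind FOXP factors were listed as partners. All 14 passed the filter, and 4 had a log2 range of at least 1, against 36.1% of all tested genes. Their median range was 0.70, and the list score, the median over members of log2 CPM minus each gene's median, spanned 0.09. The chromatin remodeller CHD4 lay between 156 and 196 CPM and the zinc finger factor YY1 between 135 and 174 CPM. Among those past a range of 1, ZBTB20 ran from 1.84 CPM in AMB5 to 18.4 CPM in AMB10. NR2F2 ran from 24.3 CPM in AMB5 to 96.1 CPM in AMB3, and TBR1 from 15.9 CPM in AMB10 to 59.6 CPM in AMB5. A score taken as a median does not show members that move in opposite directions. Among genes reported as FOXP2 targets, 4 of 5 tested had a range of at least 1, against 36.1% of all tested genes. MEF2C, which FOXP2 represses in mouse striatum, was lowest in AMB8 (123 CPM) and AMB10 (140 CPM) and highest in AMB7 (1779 CPM), the same order at both ends as FOXP2 itself. Targets did not share 1 direction. SRPX2, a listed target that did not pass the filter (6 to 138 counts), was highest in AMB10 (1.93 CPM) and AMB8 (1.91 CPM). It had at most 0.921 CPM elsewhere. The cell adhesion gene CNTNAP2 was at 73.7 CPM in AMB8 and 169 CPM in AMB5, a range of 1.20 that was 0.54 without AMB8. VLDLR, a reelin receptor, stayed between 60.3 and 97.5 CPM. The receptor tyrosine kinase MET ran from 5.18 CPM in AMB5 to 132 CPM in AMB9, a range of 4.67 that was 2.12 without AMB5.

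FOXP2 was set against marker scores of 3 neuron types that carry it, and whether these types were present in the libraries was not tested. With the deep layer score (TBR1, FEZF2, BCL11B, SOX5 and SYT6), Pearson's r was 0.809 (exact permutation p = 0.0136, adjusted p = 0.0498) and Spearman's rho 0.643 (exact permutation p = 0.0962, adjusted p = 0.353). Without AMB8 and AMB10, the libraries farthest from the median of FOXP2, r was -0.0738, so that this relation rests on those 2 libraries. The members of the score disagreed there. TBR1 was lowest in AMB8 and AMB10 (16.2 and 15.9 CPM), whereas BCL11B was highest in them (91.2 and 83.4 CPM). With the thalamic score, over 4 genes (TCF7L2, PRKCD, SLC17A6 and RORA), rho was 0.5 (exact permutation p = 0.216, adjusted p = 0.446). Its r was 0.290 (exact permutation p = 0.507, adjusted p = 0.697), and 0.235 without the same 2 libraries. The listed thalamic markers GBX2, with at most 6 counts in a library, and LHX9 did not pass the filter. No coefficient is given for the striatal score because the libraries fell into separate clusters on it, and that score spanned only 0.19. The listed striatal marker ISL1 did not pass the filter, with at most 2 counts in a library.

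The 4 FOXO genes, the effectors of insulin signalling in the nucleus, did not vary in parallel. FOXO1 (gene ID 101017109, chromosome 15, 19123601 to 19234960, minus strand) had 10.8 CPM in AMB5, a median of 16.9 CPM and 44.4 CPM in AMB3. AMB10 with 32.0 CPM and AMB8 with 31.8 CPM were next to AMB3, and the others had at most 17.6 CPM, with no overlap of the intervals across this gap. Its log2 range of 2.03 was 1.56 without AMB3. FOXO6, a FOXO gene enriched in hippocampus that serves memory consolidation in mice (gene ID 101015293, chromosome 1, 39629157 to 39651437, plus strand), had 19.6 CPM in AMB7, a median of 28.0 CPM and 40.5 CPM in AMB8. Its 3 highest libraries were AMB8, AMB10 (36.6 CPM) and AMB3 (31.7 CPM).

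FOXO3, which has been linked to longevity in humans (gene ID 101022550, chromosome 6, 154637796 to 154764060, minus strand), ran the other way. It had 85.7 CPM in AMB8, a median of 112 CPM and 165 CPM in AMB7. AMB10 (90.9 CPM) and AMB3 (94.5 CPM) were next lowest, but AMB5 with 98.7 CPM was close to them, and the intervals of AMB3 (91.5 to 97.5 CPM) and AMB5 (95.8 to 102 CPM) overlapped. The count of FOXO3 was 2.13 times that of FOXO1 in AMB3, 2.69 times in AMB8 and 2.84 times in AMB10, against 8.47 to 11.03 times in the other libraries. This ratio does not depend on library size, but its absolute value depends on the lengths of the genes. FOXO4, on the X chromosome (gene ID 101007559, 80561647 to 80569332, minus strand), had 7.65 CPM in AMB9, a median of 11.98 CPM and 14.6 CPM in AMB8. Its range of 0.93 was 0.42 without AMB9, and the other libraries had at least 10.9 CPM.

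**Figure D3:**
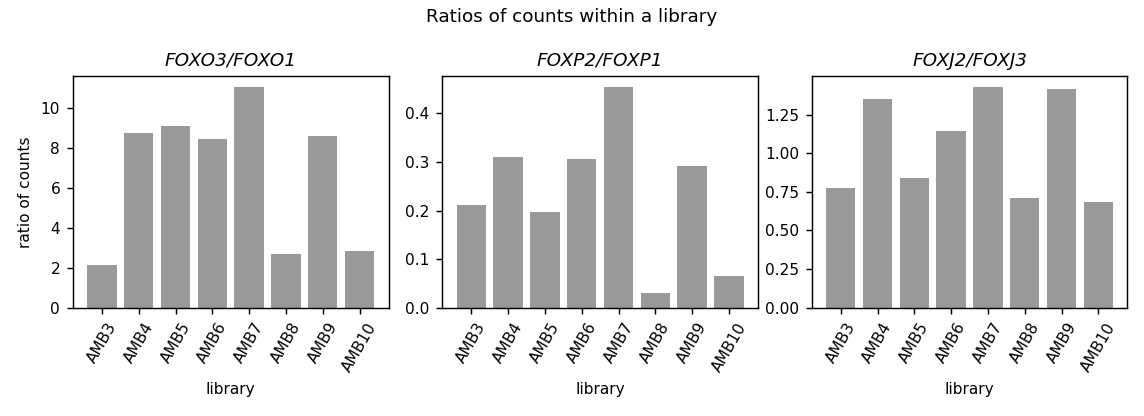
Ratios of counts of paired forkhead genes (vertical axes, starting at 0) in each library (horizontal axes). The FOXO3/FOXO1 ratio is 2.13 to 2.84 in AMB3, AMB8 and AMB10 and at least 8.47 elsewhere, FOXP2/FOXP1 is lowest in AMB8, and FOXJ2/FOXJ3 is lowest in AMB10, at 0.683.

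Genes that FOXO factors are known to induce were followed as a list. Of 22 tested targets, 8 reached a log2 range of 1 and 3 a range of 2, against 36.1% and 9.0% of all tested genes, and their median range was 0.87, against 0.77. Without AMB8 the count at 1 was 5. The list score spanned 0.22, from -0.14 in AMB8 to 0.08 in AMB6. FBXO32, a ubiquitin ligase of muscle atrophy, had the largest range of the list, with 11.5 CPM in AMB3, 12.02 in AMB8 and 17.3 in AMB10, and between 63.7 and 112 CPM in the other libraries. These 3 libraries were the highest for FOXO1 and the lowest for FOXO3. SESN3, a sestrin of the stress response, went from 67.3 CPM in AMB8 to 157 CPM in AMB6, the cell cycle brake CCNG2 from 80.3 CPM in AMB10 to 135 CPM in AMB7, and the mitophagy receptor BNIP3 from 67.9 CPM in AMB9 to 124 CPM in AMB5. The range of SESN3 was 1.22, and 0.73 without AMB8. FOXO1 had no detectable relation to the target score (rho 0.0952, exact permutation p = 0.840, adjusted p = 0.882). Its r was -0.130 (exact permutation p = 0.764, adjusted p = 0.841), and -0.675 without AMB3 and AMB10. Neither had FOXO3 (rho 0.190, exact permutation p = 0.665, adjusted p = 0.812), with r at 0.316 (exact permutation p = 0.466, adjusted p = 0.697) and at 0.254 without AMB4 and AMB7.

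Upstream, the kinases and binding proteins that place FOXO factors in the cell had a median log2 range of 0.53. Of 19 tested regulators, 2 had a range of at least 1, against 36.1% of all tested genes. These were the kinase SGK1 (35.4 to 76.5 CPM) and PIK3R1, a regulatory subunit of PI3 kinase (193 CPM in AMB8 to 441 CPM in AMB7). Without AMB8, 1 remained above that value, PIK3R1. The 14-3-3 proteins YWHAG (979 to 1285 CPM) and YWHAE (676 to 859 CPM), which keep phosphorylated FOXO in the cytoplasm, had ranges of 0.39 and 0.35.

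Several forkhead genes thus shared their extreme libraries. AMB3, AMB8 and AMB10 were the 3 highest libraries for 5 of the 25 tested genes, among them FOXO1, FOXO6, FOXP4 and FOXN2, against 9.71% of all tested genes, and the 3 lowest for another 5 (FOXP1, FOXP2, FOXO3, FOXJ2 and FOXK2), against 9.87%. Some of these orders lay within counting error, as Poisson intervals overlapped across the boundary in FOXN2, FOXP4 and FOXK2 as well as in FOXO3. In FOXN2 these were AMB3 (14.3 to 16.7 CPM) and AMB7 (14.0 to 15.8 CPM). In FOXP4 they were AMB8 (16.0 to 18.0 CPM) and AMB4 (14.8 to 16.7 CPM), and in FOXK2 AMB8 (124 to 129 CPM) and AMB4 (125 to 131 CPM). With library totals as the only scaling, FOXO3 left the second set. Below the filter, FOXE3 had the first order and FOXI3 the second. No label singles out these libraries, but the deposited normalized values were centred on the median of the same 3. Of 5 markers of dentate granule cells, PROX1, C1QL2 and NEUROD1 had the same 3 highest libraries. CALB1 was highest in AMB10 and AMB8, but its 57.3 CPM in AMB3 lay below AMB4, AMB5 and AMB7, and DSP was highest in AMB7. All 5 passed the filter, none was at 0 in any library, and their summed level ran from 93.3 CPM in AMB6 to 336 CPM in AMB8. Their score was 1.53 in both AMB8 and AMB10 and 0.35 in AMB3, against -0.52 to -0.11 in the other libraries. Genes listed as markers of other cell types differed there too, though whether each is limited to that type here was not tested. Of the deep layer markers, TBR1 and FEZF2 were lowest in AMB3, AMB8 and AMB10 and BCL11B was highest in them, while SOX5 and SYT6 had neither order. The interneuron score was lowest in AMB8 (-1.14) and AMB10 (-0.62), but -0.01 in AMB3. The part of tissue composition in the forkhead pattern was not tested.

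FOXJ1, the master regulator of motile cilia (gene ID 101018303, chromosome 17, 67734966 to 67742438, minus strand), was among the steadiest members. It had 114 CPM in AMB4, a median of 126 CPM and 148 CPM in AMB5, a log2 range of 0.37 that 88.7% of tested genes reached. AMB5, AMB8 and AMB10 formed the upper end (144 to 148 CPM) and the others lay between 114 and 127 CPM. Axoneme genes, which FOXJ1 activates, had a median range of 1.59, and 14 of 16 tested had a range of at least 1, with 4 past 2, against 36.1% and 9.0% of all tested genes. The giant axonemal protein HYDIN ran from 0.420 CPM in AMB7 to 9.71 CPM in AMB10, CFAP43 from 7.203 CPM in AMB5 to 24.2 CPM in AMB6, and TPPP3 from 18.5 CPM in AMB7 to 50.8 CPM in AMB5. The radial spoke protein RSPH9 stayed between 11.8 and 15.9 CPM. No relation of FOXJ1 to the cilia score was detectable (rho 0.381, exact permutation p = 0.360, adjusted p = 0.566). Its r was 0.466 (exact permutation p = 0.262, adjusted p = 0.576), and 0.686 without AMB5 and AMB8. Of 8 tested regulators of multiciliated cells, 5 had a range of at least 1, against the same 36.1%. TP73 ran from 1.12 CPM in AMB7 to 7.27 CPM in AMB10, whereas RFX3 (85.2 to 127 CPM), E2F4 (24.1 to 29.6 CPM) and E2F5 (7.80 to 12.4 CPM) had smaller ranges.

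FOXJ2 and FOXJ3 differed in spread. FOXJ2 had 43.8 CPM in AMB10, a median of 71.0 CPM and 104 CPM in AMB7, with AMB3 and AMB8 at 51.6 and 53.8 CPM. FOXJ3 had 63.4 CPM in AMB4, a median of 68.9 CPM and 75.6 CPM in AMB8, a log2 range of 0.25 against 1.25 for FOXJ2.

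The FOXK genes, repressors of autophagy genes in mouse muscle cells, and the FOXN genes come next, and FOXK1, FOXK2, FOXN2 and FOXN3 passed the filter. FOXK2 was the steadiest of the family, with 119 CPM in AMB10, a median of 128 CPM and 141 CPM in AMB5. FOXK1 had 3.59 CPM in AMB3, a median of 6.27 CPM and 8.22 CPM in AMB4. All 10 listed partners of FOXK proteins passed the filter and 0 of them had a log2 range of at least 1, against 36.1% of all tested genes. The deubiquitinase BAP1 lay between 183 and 224 CPM, the co-repressor SIN3B between 166 and 212 CPM, and the O-GlcNAc transferase OGT, with the largest range of 0.94, between 125 and 239.5 CPM. FOXN3, a checkpoint suppressor, had 57.9 CPM in AMB8, a median of 79.1 CPM and 87.0 CPM in AMB9. FOXN2 had 7.99 CPM in AMB5, a median of 14.8 CPM and 20.6 CPM in AMB10, and its range of 1.36 was 0.68 without AMB5. Its span overlaps by 511 bases the pseudogene LOC101008441, which had 52 to 122 counts.

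FOXM1, the activator of mitotic genes (gene ID 101025662, chromosome 9, 2893938 to 2915056, minus strand), had 6.44 CPM in AMB5, a median of 8.41 CPM and 10.8 CPM in AMB9. Its span overlaps by 615 bases that of RHNO1, a gene on the opposite strand at 40.8 to 56.5 CPM. Of 14 tested targets, 8 had a log2 range of at least 1, against 36.1% of all tested genes, a count that was 4 without AMB3 and 5 without AMB10 or with total counts as the scaling. The mitotic kinase PLK1 lay between 29.1 and 43.0 CPM, cyclin B1 (CCNB1) between 11.3 and 16.6 CPM and the phosphatase CDC25B between 11.9 and 19.97 CPM. NEK2 had the largest range, from 1.47 CPM in AMB5 to 5.11 CPM in AMB4. The target score spanned 0.60 and had no detectable relation to FOXM1 (rho 0.310, exact permutation p = 0.462, adjusted p = 0.635). The r was 0.381 (exact permutation p = 0.342, adjusted p = 0.628), and 0.822 without AMB5 and AMB9 (exact permutation p = 0.0542).

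Several of the mesenchymal and vascular forkhead genes lie in 2 clusters. On chromosome 6, FOXQ1, FOXF2 and FOXC1 follow each other within 1169166 to 1466266, with 75.0 kb between FOXQ1 and FOXF2 and 210.4 kb between FOXF2 and FOXC1. On chromosome 18, FOXL1 and FOXC2 lie 6.48 kb apart and FOXC2 and FOXF1 48.9 kb apart. FOXC1, which is needed for the meninges, had 6.75 CPM in AMB8, a median of 8.45 CPM and 11.2 CPM in AMB3. FOXF2, a factor of brain pericytes in mice, had 6.09 CPM in AMB9, a median of 7.26 CPM and 8.33 CPM in AMB5, and its range of 0.45 was 0.25 without AMB9. FOXQ1, a gene of brain endothelium, had 5.08 CPM in AMB4, a median of 6.50 CPM and 8.22 CPM in AMB3, and its range of 0.69 was 0.43 without AMB4.

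FOXC2, a factor of lymphatic vessels and mesenchyme (chromosome 18, 3452596 to 3457422), did not pass the filter. It had 106 counts in AMB7 (1.21 to 1.79 CPM), 48 in AMB4 (0.553 to 0.994 CPM) and 12 in AMB3 (0.153 to 0.516 CPM), and between 2 and 5 counts in each of the other libraries. FOXF1, a mesenchymal factor, had 0.679 CPM in AMB9, a median of 1.19 CPM and 1.62 CPM in AMB3. FOXL1, a factor of gut mesenchyme in mice, had 0.134 CPM in AMB8, a median of 0.462 CPM and 0.571 CPM in AMB6, from 7 to 36 counts, and did not pass the filter. AMB8 and AMB5 (0.161 CPM) were low and the other libraries had at least 0.402 CPM. FOXD1, a stromal factor, had 0.537 CPM in AMB8, a median of 0.890 CPM and 1.33 CPM in AMB10. FOXS1, a pericyte gene, had 1.90 CPM in AMB7, a median of 3.16 CPM and 4.09 CPM in AMB10, from 96 to 293 counts.

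Meningeal and fibroblast markers differed in level between libraries. All 8 meningeal and fibroblast markers with a row passed the filter and none was at 0. Their summed level ran from 188 CPM in AMB5 to 794 CPM in AMB7, and their score from -1.41 in AMB8 to 1.17 in AMB7. FOXC1 followed this score, with rho 0.905 (exact permutation p = 0.00456, adjusted p = 0.0251) and r 0.880 (exact permutation p = 0.00694, adjusted p = 0.0382). This pair, like the others, was chosen with earlier results of these data known, so its p-values are descriptive. Without AMB3 and AMB8, the libraries farthest from the median of FOXC1, r was 0.863 (exact permutation p = 0.0361). FOXC2 had too few counts for this test, and its 3 highest libraries, AMB7, AMB4 and AMB3, were also the 3 highest of the score. Smooth muscle markers were highest in these libraries too. Of 4 listed, 3 passed the filter, and ACTA2 had 128 CPM in AMB4, 47.5 in AMB3 and 17.2 in AMB7, against at most 14.1 CPM elsewhere. MYH11 and TAGLN had the same 3 highest libraries, CNN1 was at 0 in AMB5, and the summed level ran from 20.1 CPM in AMB6 to 274 CPM in AMB4. The part of either tissue in the levels of FOXC1 and FOXC2 was not tested.

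FOXS1 followed the pericyte score, with rho 0.905 (exact permutation p = 0.00456, adjusted p = 0.0251) and r 0.872 (exact permutation p = 0.00166, adjusted p = 0.0183). Without AMB7 and AMB9, r was 0.828 (exact permutation p = 0.0542). The pericyte score lay between -0.00555 (AMB9) and 0.0424 (AMB5) in AMB3, AMB4, AMB5, AMB6 and AMB9, so that ranks among these libraries turn on small differences. Only AMB7 (-0.390), AMB8 (-0.112) and AMB10 (0.259) stood clearly apart on it. All 7 pericyte markers passed the filter, and their summed level ran from 161 CPM in AMB7 to 243 CPM in AMB10. FOXF2 had no detectable relation to the same score (rho 0.595, exact permutation p = 0.132, adjusted p = 0.364), with r at 0.187 (exact permutation p = 0.643, adjusted p = 0.786) and at 0.348 without AMB5 and AMB9. FOXQ1 had none to the score of 11 endothelial markers, with rho -0.0714 (exact permutation p = 0.882, adjusted p = 0.882) and r -0.0521 (exact permutation p = 0.903, adjusted p = 0.903), or 0.146 without AMB3 and AMB4. FOXL2, a factor of ovarian granulosa cells, had 0.219 CPM in AMB4, a median of 0.312 CPM and 0.535 CPM in AMB6, from 9 to 35 counts. It had no detectable relation to the endothelial score, with rho -0.476 (exact permutation p = 0.243, adjusted p = 0.446) and r -0.528 (exact permutation p = 0.178, adjusted p = 0.490), or -0.750 without AMB6 and AMB10. Of 13 listed pairs, all chosen with earlier results of these data known, 11 were tested, and 2 passed at an adjusted p below 0.05 for rho. The share of all tested genes that follow the meningeal or pericyte score as closely is not given here. The calls therefore show nothing particular to FOXC1 or FOXS1. The call of FOXS1 was lost without any 1 library, where rho ranged from 0.374 (without AMB7) to 0.847, and that of FOXC1 without any except AMB10, with rho between 0.821 and 0.964. With fewer libraries a call needs a higher rho, so its loss alone does not show that a relation rests on 1 library. With no low-count filter both adjusted p-values rose above the threshold, to 0.0548 for FOXC1 and 0.0923 for FOXS1, and with total counts as the scaling that of FOXS1 was 0.131.

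**Figure D4:**
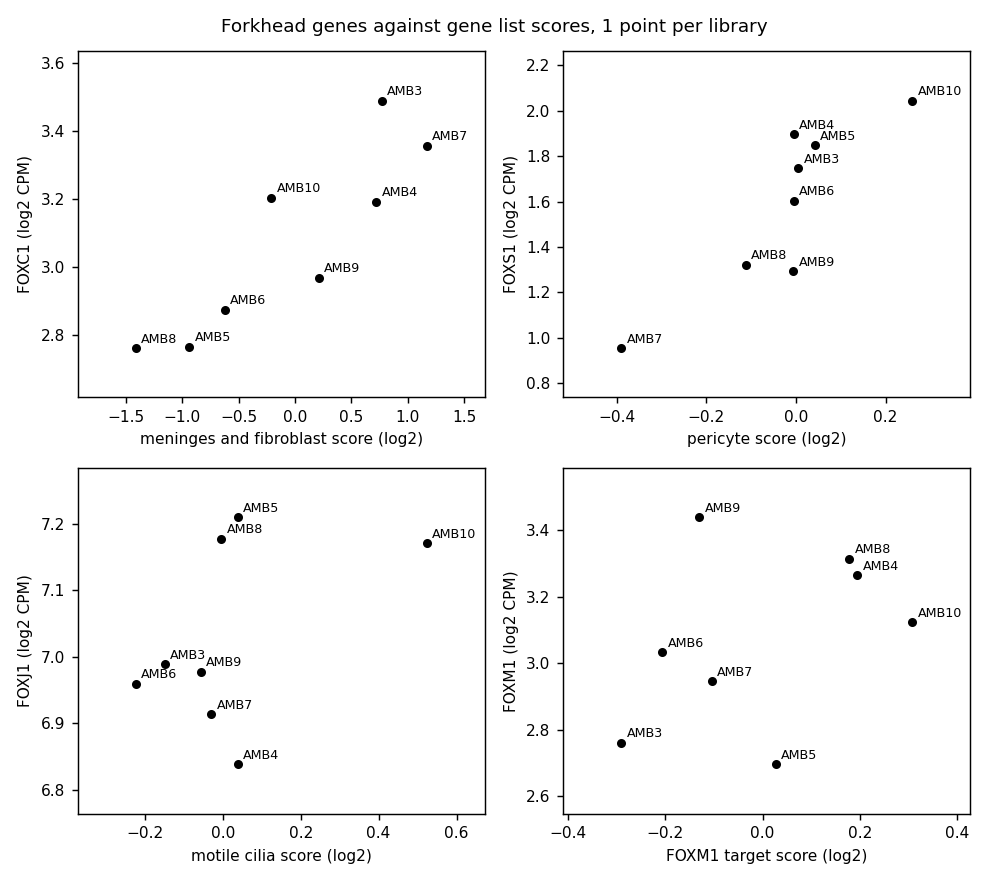
Log2 CPM of 4 forkhead genes (vertical axes) against the score of a gene list (horizontal axes, log2 relative to the median library), with 1 labelled point per library. FOXC1 rises with the meninges and fibroblast score and FOXS1 with the pericyte score (rho 0.905 each), while FOXJ1 and FOXM1 show no detectable relation (rho 0.381 and 0.310). The pericyte scores of AMB3, AMB4, AMB6 and AMB9 nearly coincide.

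A few members were near 0 in most libraries and present in some. FOXE3, a factor of the lens (gene ID 101017536, chromosome 1, 45818261 to 45820042, plus strand), had 90 counts in AMB10 (1.01 to 1.54 CPM), 89 in AMB8 (1.07 to 1.64 CPM) and 33 in AMB3 (0.559 to 1.14 CPM). It had 4 counts in AMB4 and none in AMB5, AMB6, AMB7 and AMB9, where a count of 0 allows up to 0.0754 CPM in the shallowest library. The noncoding gene LOC103884902 covers FOXE3 on the opposite strand and had at most 8 counts, in AMB7. FOXD2, 17.9 kb away, had 24 counts in AMB7, 6 in AMB4 and 0 to 2 elsewhere. FOXH1, a partner of SMAD proteins in Nodal signalling (gene ID 101025877, chromosome 8, 139649692 to 139652656, minus strand), had 86 counts in AMB9 (1.73 to 2.67 CPM) and 14 to 33 counts in the other libraries, at most 0.468 CPM. Its range of 3.11 was 0.99 without AMB9. The span of FOXH1 overlaps by 372 bases that of KIFC2 on the opposite strand, whose own level was 177 CPM in AMB9, inside its span of 153 to 301 CPM over the 8 libraries.

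FOXI3, a factor of the ectoderm and pharyngeal arches, had 0.134 CPM in AMB8, a median of 0.332 CPM and 0.944 CPM in AMB5. It did not pass the filter, with 39 to 45 counts in AMB5, AMB6 and AMB7 and 6 to 20 in the other libraries. FOXA3, a factor of liver and gut, had 24 counts in AMB8, 14 in AMB10, 8 in AMB6 and at most 4 elsewhere. FOXN4, a factor of retinal progenitors, had 6 to 22 counts, and FOXR2 0 to 6. At most 2 counts per library were found for FOXD3, a neural crest factor, FOXE1, a thyroid factor, FOXN1, the factor of thymic epithelium, and FOXR1. The endodermal factors FOXA1 and FOXA2, FOXB2, FOXI1 and FOXI2 had no count at all, and the limit set by a count of 0 was 0.0419 CPM for the deepest library and 0.0754 CPM for the shallowest.

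**Figure D5:**
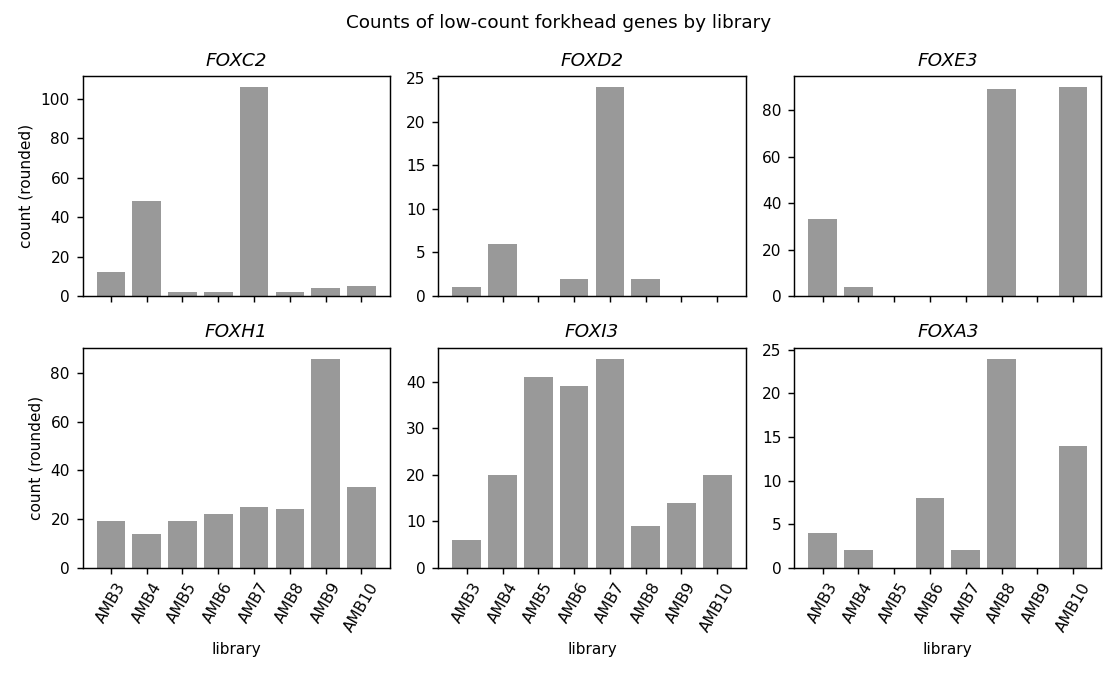
Counts (vertical axes, rounded to whole numbers, starting at 0) of 6 forkhead genes with low counts in each library (horizontal axes). FOXC2 and FOXD2 are highest in AMB7 (106 and 24 counts), FOXE3 in AMB8 and AMB10 (89 and 90 counts), FOXH1 in AMB9 (86 counts), FOXI3 in AMB7 (45 counts) and FOXA3 in AMB8 (24 counts). Counts are not scaled to library size, and by CPM FOXI3 is highest in AMB5 (0.944 CPM).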

How the data were processed

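Libraries were made from 25 ng of total RNA with a directional kit, per the labels. The authors deposited 1 table of RefSeq genes, per the file headers, with a raw and a normalized value per library. Raw values were deposited as estimated counts, some of them fractional, and the normalized values were deposited on a log2 scale, centred on the median of AMB3, AMB8 and AMB10 (tested on the 15556 genes above 20 counts throughout, of which 100% had a median of 0 within 0.0001). Per the submitters' processing notes, DESeq was used, with no version stated. Which aligner, counter and build were used is not given in the sources used here. The IDs, symbols, starts and ends of all 43 rows matched the RefSeq gene table of Panubis1.0.

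Here, expected counts were rounded to whole numbers, filtered with filterByExpr of edgeR 4.0.16 (minimum count 10, no groups) and scaled by TMM factors. Log2 CPM used a prior count of 2. The range computation was tested on simulated data. A list score needs at least 4 tested genes. Pairs were tested by exact two-sided permutation over all 40320 pairings with Benjamini-Hochberg adjustment over the 11 pairs tested, where the forkhead gene had a median count of at least 10, and no coefficient is given where a gap over 0.5 of the range left at least 2 libraries on each side. Such p-values take the libraries as independent, which the labels do not state, and measure only the spread between them. Intervals are exact Poisson intervals at 95%, and a count of 0 is given the limit of 3 counts. Members, lists and pairs were chosen with earlier results of these data known. Members with a median count of at least 10 are described by level, the others by counts, and of each pathway list, the text names the 3 tested genes with the highest median level and the 1 with the widest range. SGK1, ZBTB20, NR2F2, SRPX2 and the single neuron markers set beside forkhead genes were named after their values were seen. Some genes that this rule would name are not reported here. Of 228 listed genes, 219 had a row. DESeq2 1.42.0 size factors, total counts, a prior count of 0.5, no filter, the deposited log2 values and leaving out each library were the alternatives.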

Additional observations from a re-analysis of the deposited data

Results flagged for a closer look

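Among the 25 tested forkhead genes, 2 had a single library far from the others on the log2 CPM scale, judged by the gap to the nearest library divided by the whole range. In FOXH1 the gap below the highest library, AMB9 at 2.16 CPM, took 0.683 of the range. In FOXO4 the gap above the lowest library, AMB9 at 7.65 CPM, took 0.548 of the range. The same rule picked 857 of all 16874 tested genes, or 5.08%, and chance alone picks about 1 in 20 such sets of values.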

How the results depend on the processing

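No paired analysis was possible because no label gives a group. All 25 log2 ranges moved by less than 1 SD of their libraries under each of the DESeq2 size factors, total counts, the prior count of 0.5, no filter and the deposited log2 values. Without the filter, 21 forkhead genes reached a range of 1 and 9 a range of 2, against 12 and 3, as more genes entered. Leaving out 1 library at a time gave 10 to 12 and 2 to 3. The smallest such range was below 1 for FOXN2 (0.68, without AMB5), FOXS1 (0.75, without AMB7) and FOXK1 (0.90, without AMB3). It was also below 1 for FOXD1 (0.88) and FOXO6 (0.91), both without AMB8, and for FOXH1 (0.99, without AMB9). The others of the 12 stayed at 1 or more. With total counts as the scaling, the pathway counts at a range of at least 1 were 5 for FOXM1 targets and 1 for FOXK partners, and 1 pair passed for rho, against 8, 0 and 2, and without the filter 0 pairs passed. Without 1 library, 0 to 1 pairs passed, 4 to 8 FOXM1 targets, 5 to 8 FOXO targets and 1 to 2 FOXO regulators reached a range of 1. The rho of FOXQ1 with the endothelial score was 0.0238 with DESeq2 size factors and without the filter, and -0.286 to 0.607 without 1 library. That of FOXO1 with the FOXO targets was -0.143 with total counts and -0.335 to 0.408 without 1 library, and that of FOXO3 -0.0180 to 0.371. The causes were not tested. Depth limits what can be said of the 17 forkhead genes below the filter, for which a few counts decide a value.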
